A study of Saccharomyces cerevisiae with 3 samples.

Results

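The genes described here encode the enzymes that phosphorylate glucose, turn glucose 6-phosphate into fructose 6-phosphate and control the entry of fructose 6-phosphate into glycolysis in budding yeast. They are HXK1, HXK2, GLK1 and EMI2 of glucose phosphorylation, PGI1 of the isomerase step, PFK1 and PFK2 of phosphofructokinase, and PFK26, PFK27 and FBP26, which make and break fructose 2,6-bisphosphate. The 10 genes were chosen by their symbols in the annotation of the array platform, out of 4069 genes that carry a symbol there, and each was measured by 7 spots per array. The data come from 3 independent cultures of the wild-type strain BY4741, a haploid laboratory strain in which HIS3, LEU2, MET17 (also called MET15) and URA3 are deleted in whole or in part. Stressed cells had been in NaCl at 0.4 M for 15 minutes before RNA was taken, and untreated cells had received no salt. Both were grown in YPD, a rich medium with glucose, to the exponential phase at one temperature. For each culture, RNA of NaCl cells (Cy3) and RNA of untreated cells (Cy5) were hybridized to the same two-colour array, so what was measured is the ratio of both conditions, and no level of either is at hand. The question is how transcripts of these enzymes changed upon osmostress.

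Hexokinases and glucokinases trap glucose in the cell by phosphorylating it. Glucose 6-phosphate can then enter the pentose phosphate pathway, serve trehalose and glycogen synthesis, or be isomerized to fructose 6-phosphate, which phosphofructokinase commits to glycolysis. Fructose 2,6-bisphosphate is a signalling metabolite that activates phosphofructokinase and inhibits the opposing fructose-1,6-bisphosphatase. Osmostressed yeast draws on the upper part of glycolysis for glycerol, its compatible solute, and stores part of its glucose as trehalose.

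The dyes were not exchanged on any array, so dye and NaCl effects on a transcript cannot be told apart. The deposited values were taken to be log2 ratios with NaCl on top. For the direction, 378 genes that the study lists as osmoresponsive were above 0 without exception on each of the 3 arrays. The 10 genes were left out of this check. The lowest mean among those 378 genes was 0.72, which is 1.65-fold if the base is 2, 2.06-fold for e and 5.26-fold for 10. The study chose them by a fold threshold that lies between the values for base 2 and base e. The base was therefore not settled, and all folds given here take it to be 2. Each array had its median gene near 0 (-0.0010, -0.013 and -0.023), so a shift shared by all transcripts would not be seen. Ratios of the genes deleted in BY4741 had means from -0.06 to 0.03. Across all genes, replicate 1 correlated less with the others (Pearson's r of 0.931 with replicate 2 and 0.890 with replicate 3) than they did with each other (0.971). The number of arrays limits the precision.

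All 10 genes rose upon osmostress, and each was above 0 on all 3 arrays. Among all genes, 26.9% rose and 27.9% fell past the same threshold, an adjusted p under 0.05 from limma, and 35.3% were above 0 on all 3 arrays. The genes that fell numbered 1135, against 695 when replicate 2 was left out. Without replicate 1 or without replicate 2, 9 of the 10 passed, and PFK2 was lost (adjusted p = 0.086 and 0.19 from limma). Such fits estimate the spread anew from the remaining arrays, so counts and calls can shift without a change of the ratios. The increases spanned a wide range. The median of the 10 means was 1.34 on the log2 scale (2.53-fold), against -0.0058 over all genes, with 3.41 for EMI2 at the top and 0.35 for PFK2 at the bottom. The 3 glucose-phosphorylating genes EMI2, HXK1 and GLK1 had means at about the same height. Below them came FBP26 (1.87), PFK26 (1.57) and HXK2 (1.12), and the remaining 4 genes were below a log2 ratio of 1. No clear gap lay between HXK2 and those 4, of which PGI1 was highest at 0.81. By the mean, 6 of the 10 genes were over 2-fold, against 6.61% of all genes. When the change was tested against a fold of 2 instead of no change, 5 of the 10 passed (EMI2, HXK1, GLK1, FBP26 and PFK26), against 3.93% of all genes that rose in that test.

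**Figure D1:**
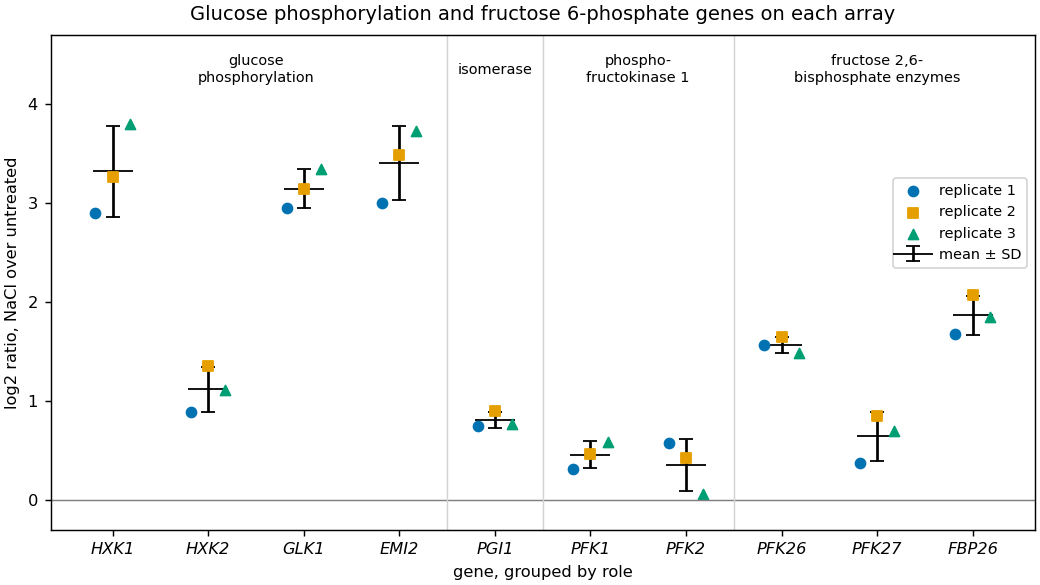
Log2 ratio of NaCl over untreated cells (vertical axis) for each of the 10 genes (horizontal axis, grouped by role), with 1 point per array and the mean ± SD over the 3 arrays in black. HXK1, GLK1 and EMI2 lie near 3 or above on every array, PFK1 and PFK2 stay below 0.6, and PFK2 comes down to 0.06 in replicate 3.

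Of the genes of glucose phosphorylation, EMI2, HXK1 and GLK1 rose most. EMI2, a paralogue of GLK1 that was named for its part in early meiotic induction, had log2 ratios of 3.00, 3.49 and 3.73 in replicates 1, 2 and 3. Its mean was 3.41 ± 0.37 (SD, n = 3), or 10.6-fold (adjusted p = 9.7e-07 from limma), which placed it 37th from the top of 4069 genes. HXK1 encodes the hexokinase that yeast is known to make on carbon sources other than glucose. Its log2 ratios were 2.90, 3.26 and 3.80, and their mean of 3.32 ± 0.46 (SD, n = 3) corresponds to 9.99-fold (adjusted p = 2.0e-06 from limma). HXK1 varied more between arrays than 97.9% of all genes did, yet its lowest array was still at 7.44-fold. GLK1, the glucokinase gene, had log2 ratios of 2.95, 3.14 and 3.34. The mean was 3.15 ± 0.20 (SD, n = 3), or 8.85-fold (adjusted p = 2.9e-07 from limma).

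HXK2 encodes the main hexokinase of cells growing on glucose, which also takes part in glucose repression together with the repressor Mig1. Its log2 ratios of 0.89, 1.35 and 1.11 were well below those of HXK1 on the same arrays. The mean was 1.12 ± 0.23 (SD, n = 3), or 2.17-fold (adjusted p = 0.00011 from limma), and 94.4% of all genes had a lower mean. Within arrays, HXK1 exceeded HXK2 by 2.01, 1.91 and 2.69 on the log2 scale, a mean difference of 2.20 ± 0.42 (SD, n = 3) or 4.60 times the fold change. The spots of the 2 genes did not overlap on any array: the lowest of the HXK1 spots was at 2.80 in replicate 1, while the highest of all HXK2 spots was at 1.49 in replicate 2.

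With 3 arrays, an exact two-sided sign-flip permutation test of a difference within arrays cannot go below p = 0.25, so no difference between 2 of these genes could pass. The exact test gave p = 0.25 for HXK1 minus HXK2 (0.333 after Benjamini-Hochberg adjustment over the 8 pairs compared), and the size and the 3 of 3 arrays in the same direction are what the data offer. EMI2 lay 0.05, 0.35 and 0.39 above its paralogue GLK1, with a mean of 0.26 ± 0.18 (SD, n = 3, exact p = 0.25, adjusted 0.333). The spots of EMI2 and GLK1 overlapped in replicates 1 and 2 and were apart in replicate 3. HXK1 minus GLK1 was -0.05, 0.12 and 0.46, so the sign was not the same on every array (mean 0.17 ± 0.26, SD, n = 3, exact p = 0.5, adjusted 0.571). The order of EMI2, HXK1 and GLK1 among themselves was therefore not settled by these arrays. HXK1 and HXK2 are close paralogues, as are GLK1 and EMI2, and probe sequences were not used here. Whether spots of one gene also picked up its paralogue was not tested.

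PGI1, the single gene for phosphoglucose isomerase, rose evenly. Its log2 ratios of 0.75, 0.90 and 0.77 gave a mean of 0.81 ± 0.08 (SD, n = 3), or 1.75-fold (adjusted p = 0.00021 from limma). It varied little between cultures, and only 17.9% of all genes had a smaller SD over the arrays.

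PFK1 and PFK2 encode the alpha and beta subunits of phosphofructokinase, the enzyme that commits fructose 6-phosphate to glycolysis. They had the lowest means of the 10 genes. PFK1 had log2 ratios of 0.32, 0.46 and 0.59, a mean of 0.46 ± 0.14 (SD, n = 3) or 1.37-fold (adjusted p = 0.0053 from limma). PFK2 had 0.58, 0.42 and 0.06, a mean of 0.35 ± 0.27 (SD, n = 3) or 1.28-fold (adjusted p = 0.035 from limma). The subunit genes thus stood in opposite order on arrays 1 and 3, and PFK1 minus PFK2 was -0.26, 0.04 and 0.53 (mean 0.10 ± 0.40, SD, n = 3, exact p = 0.75, adjusted 0.75). Without replicate 1 the log2 ratio of PFK2 was 0.24 and without replicate 2 it was 0.32, and in neither case did it pass (adjusted p = 0.086 and 0.19 from limma). PGI1 lay above PFK1 by 0.35 ± 0.14 and above PFK2 by 0.45 ± 0.27 (SD, n = 3), on all 3 arrays in both cases (exact p = 0.25, adjusted 0.333 for each).

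The spots of PFK2 were spread more widely than those of most genes. In replicate 3 they ran from -0.40 to 0.34, with an SD of 0.31 that exceeded that of 97.0% of all genes, and in replicate 2 from -0.0006 to 0.76. The same 2 spots, the last ones in the numbering of the array, were the lowest on every array. They had a mean log2 ratio of 0.01 ± 0.36, while the other 5 spots had 0.49 ± 0.23 (SD, n = 3 arrays each). This split was made after the values were seen. HXK2 was the only other of the 10 genes in which the same 2 spots were lowest on all arrays, which held for 1.94% of all genes. In HXK2 these were also the last 2 spots, and they deviated from the mean of the gene by -0.12, -0.18 and -0.09. In PFK2 the last 2 spots deviated from the mean of the gene by -0.23, -0.38 and -0.43 on the log2 scale, whereas over all genes with 7 measured spots the median deviation of the last 2 spots was 0.029, 0.0060 and -0.021. Over all spots, deviations from the mean of the gene correlated between arrays (Pearson's r from 0.269 to 0.442, across spots that share their place on the array, given as a description). The part of spot position or probe sequence in this was not tested. With the median of the spots in place of the mean, PFK2 had a log2 ratio of 0.45 (adjusted p = 0.015 from limma).

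**Figure D2:**
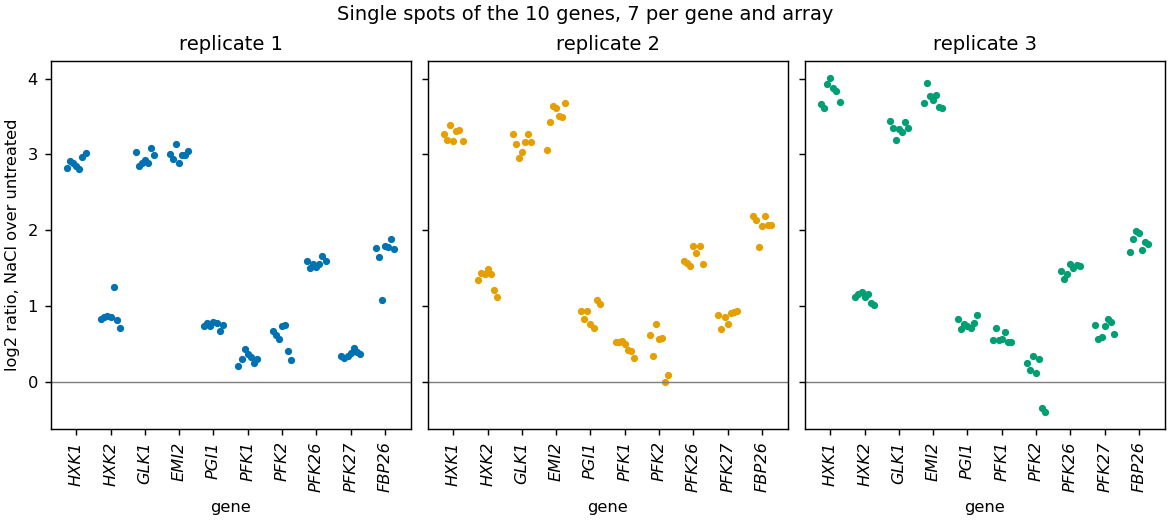
Log2 ratio of NaCl over untreated cells (vertical axis) of every spot of the 10 genes (horizontal axis), 7 per gene in the order of their numbers, with a panel for each replicate. The spots of HXK1 and HXK2 are apart in every panel, and the last 2 spots of PFK2 hang below the rest of that gene, down to -0.40 in replicate 3.

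The genes for fructose 2,6-bisphosphate metabolism rose on both sides of the metabolite, and each had a higher mean than PFK1 and PFK2. PFK26, which encodes a 6-phosphofructo-2-kinase that makes fructose 2,6-bisphosphate, had log2 ratios of 1.57, 1.65 and 1.48. The mean was 1.57 ± 0.08 (SD, n = 3), or 2.96-fold (adjusted p = 5.4e-06 from limma), with one of the smaller spreads between arrays (19.7% of all genes had a smaller SD). FBP26 encodes a fructose-2,6-bisphosphatase, which removes the metabolite. Its log2 ratios were 1.67, 2.07 and 1.85, and the mean was 1.87 ± 0.20 (SD, n = 3), or 3.64-fold (adjusted p = 4.4e-06 from limma). In replicate 1, a single FBP26 spot lay at 1.08, far from the median of 1.76.

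PFK27 encodes the second 6-phosphofructo-2-kinase and had a lower ratio than PFK26 on every array. Its log2 ratios of 0.37, 0.85 and 0.70 gave a mean of 0.64 ± 0.25 (SD, n = 3), or 1.56-fold (adjusted p = 0.0021 from limma). PFK26 exceeded PFK27 by 1.20, 0.80 and 0.78, a mean of 0.92 ± 0.24 (SD, n = 3, exact p = 0.25, adjusted 0.333), and their spots were apart on every array. PFK26 minus FBP26 was -0.11, -0.42 and -0.37, so that the kinase gene was below the phosphatase gene on all 3 arrays (mean -0.30 ± 0.17, SD, n = 3, exact p = 0.25, adjusted 0.333). The spots of PFK26 and FBP26 overlapped in replicates 1 and 2.

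**Figure D3:**
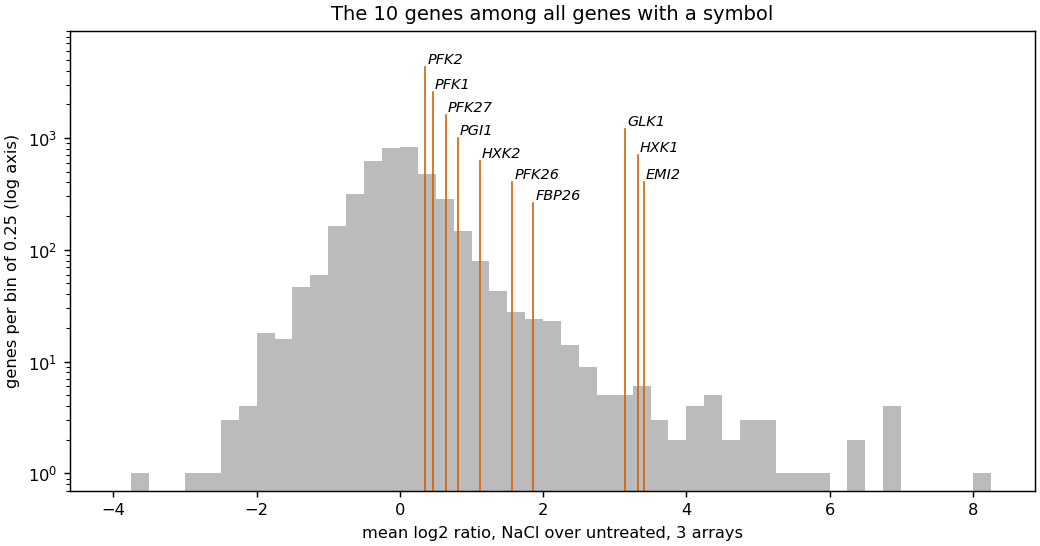
Number of genes (vertical log axis, bins of 0.25) at each mean log2 ratio of NaCl over untreated cells (horizontal axis) for all 4069 genes, with an orange line at the mean of each of the 10 genes (line heights are for legibility). All lines lie right of 0, and those of GLK1, HXK1 and EMI2 stand in the thin upper tail, in which GLK1 ranks 41st from the top.

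Replicate 1 gave the lowest value for 8 of the 10 genes and replicate 3 for the other 2, PFK2 and PFK26. Among all genes that rose, replicate 1 was the lowest array for 46.5%. The gap between the highest and the lowest array ran from 0.15 for PGI1 to 0.91 for HXK1, followed by 0.73 for EMI2 at the upper end. By the smallest root mean square difference over the 3 arrays, a search over all genes, the closest to EMI2 were GSY2, a glycogen synthase gene (0.070), HXK1 (0.151) and the carbonic anhydrase gene NCE103 (0.174). Closest to PFK2 were ALG3, a mannosyltransferase gene of protein glycosylation (0.019), RET2, a coatomer subunit gene (0.033), and SED5, a Golgi SNARE gene (0.040).

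In the lists of the study, EMI2 and HXK1 are among the Hog1-dependent genes, and GLK1, PFK26 and FBP26 among the Hog1-independent ones. HXK2 and PGI1 are listed as osmoresponsive only, and PFK1, PFK2 and PFK27 in none of these lists. The lists were drawn up in part on these arrays, so they are no independent evidence for the ratios. The paralogues EMI2 and GLK1 are thus on different lists, and their ratios overlapped within the spread of the arrays. The study drew both lists from genes past a fold threshold in wild-type cells. It then assigned dependence on Hog1 mainly from earlier expression data on hog1 cells. Genes with Hog1 at their coding regions whose expression did not count as dependent were placed among the independent ones. The study also reports a higher average fold change for its dependent genes, so list and wild-type ratio are not separate. Only wild-type cells were measured, and dependence on Hog1 was not tested.

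The 10 genes lie on chromosomes II, III, IV, VI, VII, IX, X, XIII and XV, with only HXK2 and PFK1 on the same one (VII). Of the 20 neighbouring protein-coding genes in the order of the reference annotation, 11 carry a symbol on the array. They had means from -0.56 to 0.62 on the log2 scale, the highest being MOB1 beside PFK26. Of the 11, 3 rose, 4 fell and 4 did not pass the limma test, where 26.9% of all genes rose and 27.9% fell. GLK1 and PFK2 had no neighbour with a value, and HXK1 had a value for RPN12 only. The proteasome subunit gene RPN12 beside HXK1 was at 0.32, and SLF1 and GRH1 beside EMI2 were at -0.07 and 0.29, far below the genes they adjoin.

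Set along the glycolytic route, the increases were large for EMI2, HXK1 and GLK1 of glucose phosphorylation, small at phosphofructokinase and intermediate below it. HXK2, with a mean of 1.12, lay within the range of lower glycolysis. Of 13 genes of lower glycolysis, 11 rose, none fell and 2 did not pass (12 had an unadjusted p under 0.05), with a median log2 ratio of 0.90. TDH3 of glyceraldehyde-3-phosphate dehydrogenase had 1.25, 1.34 and 0.96 (mean 1.18), PGK1 of phosphoglycerate kinase a mean of 1.17, and the aldolase gene FBA1 0.81, 1.36 and 1.15 (mean 1.11). FBA1, which acts on the product of phosphofructokinase, was above PFK1 and PFK2 on every array. HXK1, GLK1, EMI2, PFK26 and FBP26 each had a higher mean than all 13 genes of lower glycolysis, HXK2 than 11 of them and PGI1 than 6. PFK1 and PFK2 exceeded only 2, the minor isoenzyme genes GPM3 and PYK2. If each glycolytic step is represented by its highest gene, phosphofructokinase had the lowest value of 10 steps, 0.46, and the others ran from 0.77 (pyruvate kinase) to 3.41 (glucose phosphorylation). This last comparison was of means and was not tested, and taking the highest gene favours steps with more genes. It did not hold on every array: in replicate 1 the pyruvate kinase genes CDC19 (0.54) and PYK2 (0.29) were below PFK2 (0.58). The 5 listed transcription factors of glycolytic genes (GCR1, GCR2, TYE7, RAP1 and REB1) did not pass the limma test, none had an unadjusted p under 0.05, none passed without variance moderation, and their means lay between -0.18 and 0.17. When replicate 1 was left out, GCR2 fell, at -0.28 (adjusted p = 0.024 from limma).

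**Figure D4:**
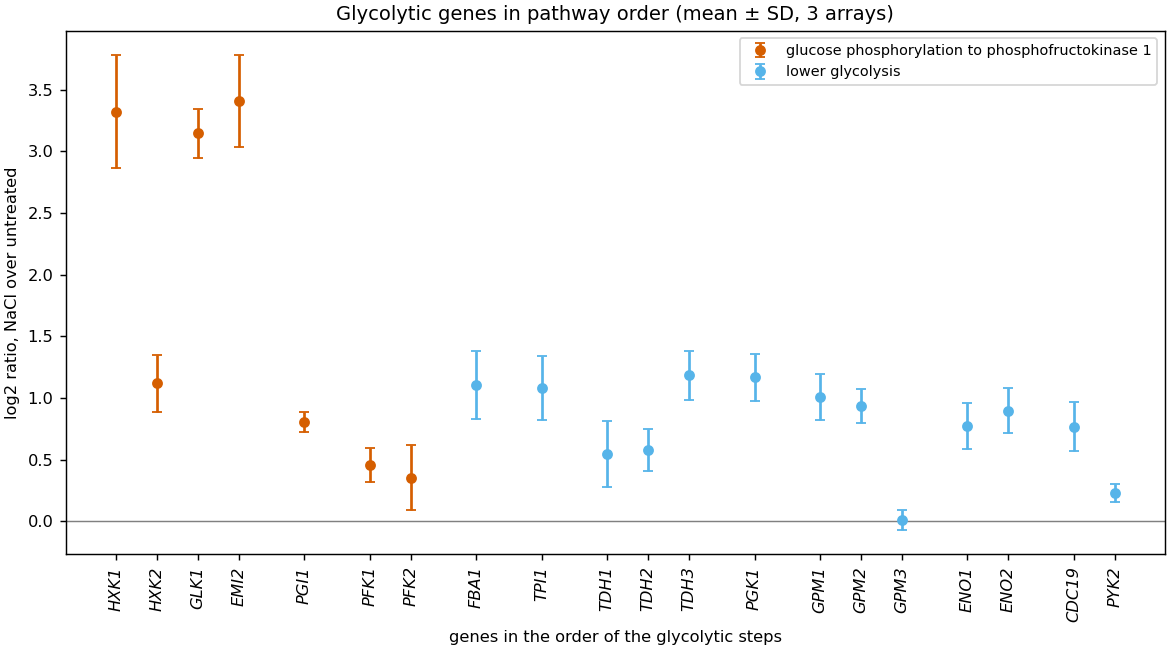
Mean log2 ratio of NaCl over untreated cells (vertical axis, bars are the SD over 3 arrays) of glycolytic genes in the order of the pathway (horizontal axis), from glucose phosphorylation to phosphofructokinase in orange and lower glycolysis in blue. HXK1, GLK1 and EMI2 stand above 3, PFK1 and PFK2 below 0.5, and most genes of lower glycolysis near 1.

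The routes that use glucose 6-phosphate and the glycerol branch held genes with larger increases than PGI1, PFK1 and PFK2. Of 12 genes from glucose 6-phosphate to trehalose and glycogen, 10 rose and none fell, with a median of 3.52. PGM1, which did not pass, rose without replicate 1, at 0.23 (adjusted p = 0.037 from limma). TPS2 of trehalose synthesis was at 4.76, GSY1 of glycogen synthesis at 4.53 and the branching enzyme gene GLC3 at 4.44, all above EMI2. Of 10 measured genes of the pentose phosphate pathway, 5 rose, 1 fell and 4 did not pass. TKL2 (6.46), SOL4 (5.49) and GND2 (2.23) are the minor isoenzyme genes of this pathway, and RKI1 of ribose 5-phosphate isomerization fell by 0.69 on the log2 scale. Of 4 genes from dihydroxyacetone phosphate to glycerol, 3 rose, namely GPP2 (4.28), GPD1 (4.18) and GPP1 (1.48), and GPD2 had a mean of -0.0003.

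Of 7 genes from fructose 6-phosphate to precursors of mannose and chitin, 1 rose, 1 fell and 5 did not pass: GNA1 of glucosamine phosphate acetylation was at 0.44 and the phosphomannomutase gene SEC53 at -0.61, with a median of 0.03. Of 5 genes of gluconeogenesis, 2 rose, 1 fell and 2 did not pass. FBP1, whose enzyme opposes phosphofructokinase, had log2 ratios of 0.28, 0.43 and 0.59 (mean 0.43, adjusted p = 0.0074 from limma), and PYC1 of pyruvate carboxylation was at 0.38. Its paralogue PYC2 was at -0.32. The FBP1 call was lost without replicate 2 (adjusted p = 0.061 from limma), while its mean stayed at 0.43. The PYC2 call was lost without replicate 2 (adjusted p = 0.25 from limma) and without replicate 3 (0.15). Of 3 genes from galactose to glucose 1-phosphate, GAL7 (0.87) and GAL10 (0.45) rose and GAL1 had a mean of -0.23. The GAL10 call was lost without replicate 2 (adjusted p = 0.053 from limma), and GAL1 fell without replicate 1, at -0.39 (0.0076).

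Of 7 measured genes listed for glucose repression and its regulation, 1 rose, 2 fell and 4 did not pass. MIG2, which encodes a repressor related to Mig1, had log2 ratios of -1.32, -1.32 and -1.81 and a mean of -1.48 ± 0.28 (SD, n = 3). SNF4, the gamma subunit gene of the Snf1 kinase, was at -1.03, -0.42 and -0.28 (mean -0.58), and REG1, which encodes a regulatory subunit of the Glc7 phosphatase, at 0.91, 0.49 and 0.12 (mean 0.51). Replicate 1 was furthest from 0 for SNF4 and REG1 and not for MIG2. MIG1 had a mean of -0.01 and SNF1 one of 0.30, and neither passed the test. SNF1 rose without replicate 3, at 0.37 (adjusted p = 0.026 from limma), and MED8, a Mediator subunit gene, without replicate 1, at 0.35 (0.011).

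**Figure D5:**
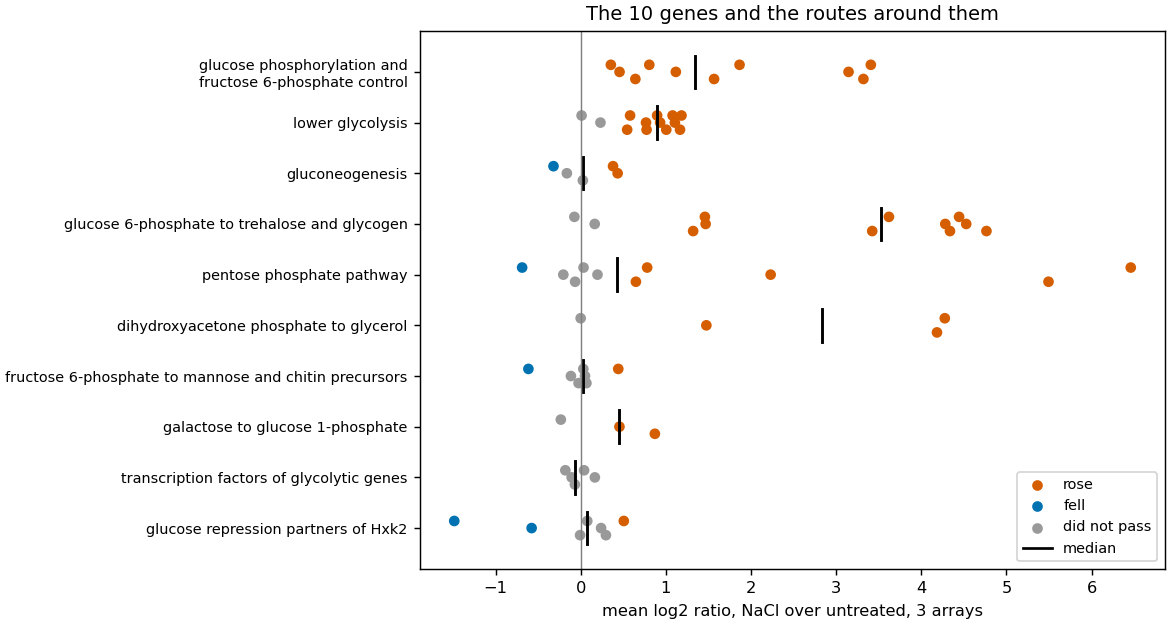
Mean log2 ratio of NaCl over untreated cells (horizontal axis) of each gene in the 10 genes described (top row) and in the lists of neighbouring routes and regulators (rows below), coloured by the limma call, with the median of each row as a black bar. The top row lies wholly right of 0 with a median of 1.34. Lower glycolysis (0.90) lies below that median, and the glycerol branch (2.83) and the trehalose and glycogen route (3.52) lie above it.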

How the data were processed

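The authors deposited 1 normalized log ratio per spot and array, taken here to be log2, with limma as the tool in the submitters' processing notes. The version of limma, the background correction, the normalization and spot filters were not given in the sources used here. Intensities of spots were not analysed here. The table held 45220 spots with 1 missing value, and 28532 spots (63.1%) carried a symbol. Symbols were brought up to date through the gene table of assembly R64, which was used for names and gene order only (3940 current, 129 by synonym, 4 kept). The value of a gene on an array is the mean of its spots, and no normalization was added. For each of 4069 genes, the mean of the 3 ratios was tested with limma 3.58.1 (R 4.3.3) and its empirical Bayes step, and two-sided p-values against no change were adjusted by Benjamini-Hochberg over all genes at a threshold of 0.05. The procedure was run on simulated data with independent noise, in which far fewer genes changed than were called here. It therefore gives no error rate for these data. Only genes past the threshold are said to have risen or fallen. Pairs were compared by the exact sign-flip test over arrays. Each array holds both conditions of 1 culture and is its own block. The direction rule asked for at least 90% of listed genes on the same side of 0.

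The 10 genes, the lists and the tests were chosen with earlier results of these data known. All 10 genes are named, together with up to 3 genes per list that passed and changed most, the most changed one in the opposite direction, the 3 genes closest to the highest and to the lowest of the 10, and genes named after their values were seen (neighbours, and list members that did not pass). The lists hold genes of lower glycolysis, gluconeogenesis, trehalose and glycogen synthesis, the pentose phosphate pathway (NQM1 was not analysed here), glycerol synthesis, mannose and chitin precursors, galactose entry, glycolytic transcription factors, glucose repression (TDA1 was not analysed here) and the genes deleted in BY4741. A list of 2 further homologues of these enzymes was not analysed here. A search for promoter motifs and a comparison of protein sequences were planned and not run. The fit was repeated with arrays centred or scaled, spots summarised by their median, each replicate left out, robust empirical Bayes, no variance moderation, a threshold of 0.01 and a test against a fold of 2. Python 3.11.15 with numpy 2.4.6, pandas 2.3.3 and matplotlib 3.10.9 served for tables and plots.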

Additional observations from a re-analysis of the deposited data

How the results depend on the processing

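All 10 genes kept their direction in the 10 alternatives, and 88 of 100 single values kept their side of the threshold. Without variance moderation 6 of the 10 rose (HXK2, PFK1, PFK2 and PFK27 did not pass), against a fold of 2 there were 5, and without each replicate 9 to 10. The PFK2 call was also lost at a threshold of 0.01. Of 66 listed genes of neighbouring routes and regulators, 35 rose and 5 fell. Without variance moderation 19 rose and 0 fell, against a fold of 2 there were 15 and 1, and at 0.01 those that fell numbered 3. Leaving out each replicate gave 33 to 37 that rose and 4 to 7 that fell. Over all genes, 400 rose and 361 fell without variance moderation, against 160 and 57 in the test against a fold of 2. Leaving out each replicate gave 777 to 1282 that rose and 695 to 1340 that fell, the lowest of them without replicate 2. These fits estimate the spread anew from the remaining arrays. Without replicate 2, the adjusted p of HXK1 from limma went from 2.0e-06 to 1.9e-64. A call lost in these fits can thus come from the spread as well as from the mean ratio. Without moderation each gene has its own spread from 3 arrays, and against a fold of 2 the bar is higher, so both lower the counts by construction. PFK1 minus PFK2 turned to -0.11 without replicate 3 and ran up to 0.28, and the other 47 values of pair differences kept their sign. Each ratio already pairs both conditions of a culture. No paired analysis was possible beyond that, because no second group shares the replicate numbers. The alternative window for promoter motifs was not run. The precision is limited by the number of arrays, and signal over background was not analysed here.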
